A study of Homo sapiens with 6 samples.

Results

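The genes examined were 10 members of the switch that carries a cell from G1 into S phase, namely CCND1, CCND3, CDK4 and CDK6 of the cyclin D arm and CCNE1, CCNE2, CDK2, CDC25A, E2F1 and E2F2 of the cyclin E arm. They were chosen by symbol with earlier results of these data known, as were the lists and tests below. Shares of all genes given beside counts of members or list genes are thus for scale and test nothing. All 10 were among the 20683 genes listed in the files and among the 11216 genes with enough counts to be tested. RNA came from HT-1080, a long-established line grown from a human fibrosarcoma. The cells were kept for 24 h with the IRAK4 inhibitor SLV-8472-01 (3 libraries, labelled 5 mM, a unit not checked here) or with 0.1% DMSO (3 libraries). All the dishes were of this 1 line at 1 time point and 1 concentration, and the labels name no genetic change in either group. IRAK4 is the kinase that passes on signals of Toll-like and interleukin-1 receptors.

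In the standard account of G1, growth signals raise D-type cyclins, which bind CDK4 or CDK6 and begin to phosphorylate the retinoblastoma protein RB1. Partly phosphorylated RB1 lets go of the activator E2Fs (E2F1, E2F2 and E2F3), and these switch on the cyclin E genes, CDC25A and their own genes. Cyclin E with CDK2, freed of inhibitory phosphate by the phosphatase CDC25A, phosphorylates RB1 further, so that the cyclin E arm feeds itself while the cyclin D arm follows outside signals. Phosphorylation and protein levels were not measured here.

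The cyclin E arm rose in part at the RNA level, and no gene of the cyclin D arm passed the test. CDC25A rose 2.62-fold, CCNE2 2.3-fold, CCNE1 1.81-fold and E2F2 3.37-fold in the inhibitor libraries. CDK2 and E2F1, the other members of that arm, did not pass, nor did CCND1, CCND3, CDK4 or CDK6, all with folds between 0.87 and 1.22. In RNA of whole dishes, more cells in a phase that expresses a gene and more RNA per cell cannot be told apart. The test was edgeR's quasi-likelihood test with Benjamini-Hochberg adjustment over all tested genes at a threshold of 0.05. It called 4 of the 10 members higher and 0 lower, against 1.95% of all tested genes called higher and 1.92% called lower. With library totals as the only scaling these 4 calls were unchanged in number, while the calls over all genes went from 219 higher and 215 lower to 336 and 163. The median log2 fold change was 1.03 over the 6 genes of the cyclin E arm, 0.21 over the 4 genes of the cyclin D arm and -0.00438 over all tested genes.

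Promoters of 3 members that rose (CDC25A, E2F2 and CCNE1) and of E2F1, which did not pass, are shown because these genes are textbook E2F targets and the E2F consensus can be read in some of them. The stretches are the 120 bases before the RefSeq start site in GRCh38.p14, 5′ to 3′ on the gene's strand, and capitals mark a match to the E2F consensus. The matches searched were TTTCGCGC, TTTGGCGC, TTTCCCGC and TTTGCCGC on both strands, and no match in these stretches overlapped another. CDC25A lies at chr3:48188418-48188537 (minus strand), E2F2 at chr1:23531234-23531353 (minus), E2F1 at chr20:33686386-33686505 (minus) and CCNE1 at chr19:29811871-29811990 (plus).
CDC25A: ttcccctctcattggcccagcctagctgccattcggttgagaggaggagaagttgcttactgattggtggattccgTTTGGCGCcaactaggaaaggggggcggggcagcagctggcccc
E2F2: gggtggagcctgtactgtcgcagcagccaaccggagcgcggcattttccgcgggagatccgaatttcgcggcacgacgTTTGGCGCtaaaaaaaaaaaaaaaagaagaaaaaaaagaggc
E2F1: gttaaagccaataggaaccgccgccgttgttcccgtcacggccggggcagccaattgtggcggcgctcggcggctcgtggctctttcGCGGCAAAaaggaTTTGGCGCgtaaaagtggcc
CCNE1: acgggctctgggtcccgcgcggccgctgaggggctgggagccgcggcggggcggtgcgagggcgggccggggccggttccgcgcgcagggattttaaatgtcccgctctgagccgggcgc

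The match TTTGGCGC begins 44 bases before the start of CDC25A and 42 bases before that of E2F2. E2F1 holds the same letters 20 bases before its start and a further match, TTTGCCGC on the other strand, 33 bases before it. CCNE1 holds none of the 4 spellings in its window of 300 bases (250 before the start and 50 after). A window of that length was in the table for 7 of the 10 members, the others being CCND1, CDK2 and CCNE2. In the cyclin E arm 3 of 4 genes had a match and in the cyclin D arm 0 of 3, against 3.99% of all 27305 genes in the table (3.31% of its 35116 windows). Of the 7 genes, CDC25A and E2F2 held a match and rose, and CCND3, CDK4 and CDK6 held none and did not pass the test. E2F1 held 2 matches and did not pass, and CCNE1 held none and rose. A match describes letters in a window and not binding, which was not measured.

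**Figure D1:**
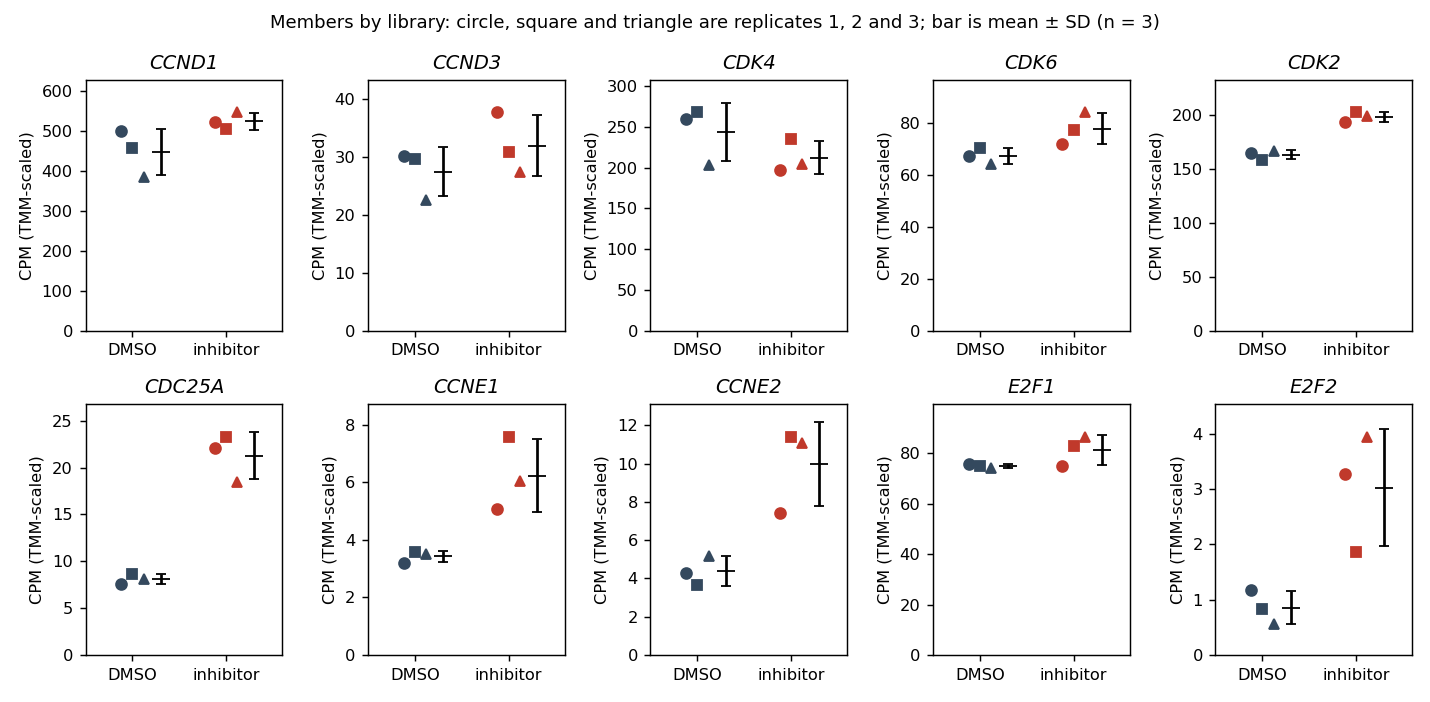
Level of each member in TMM-scaled CPM (vertical axes from 0) in the 3 DMSO (dark) and 3 inhibitor (red) libraries, with the mean ± SD of each group (n = 3) as a black bar. The inhibitor libraries lie clear above the DMSO libraries for CDC25A, CCNE1, CCNE2 and E2F2. They lie above by a small step for CDK2, CDK6 and CCND1, while CCND3, CDK4 and E2F1 overlap.

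Library totals ran from 9162281 to 13184553 counts, and levels are given as CPM, the count scaled to the library's effective size. Replicates differed by more than counting noise in every pair (chi-square divided by its degrees of freedom from 5.17 to 36.7), most in the 2 pairs with DMSO 3. Along the GC content of transcripts, DMSO 1 and DMSO 3 deviated from their group mean in opposite directions. Spearman correlations across 9189 genes, which are not independent, were 0.526 for DMSO 1, 0.128 for DMSO 2 and -0.484 for DMSO 3. Because deviations are taken from the group's own mean, opposite signs are in part built in. The series calls the libraries biological replicates without naming separate cultures, so p-values measure the spread between these libraries. Of the mesenchymal markers, VIM, FN1, CDH2, LGALS1, COL6A1 and COL6A2 were well counted, S100A4 was at most at 3.58 CPM and THY1 had 1 count in all. Epithelial markers summed to at most 0.624 CPM, leukocyte markers to at most 1.23 CPM and endothelial markers to at most 3.1 CPM in a library. CDH1, PTPRC and VWF were at 0 in every library, while KRT19 reached 0.446, LYZ 0.98 and PECAM1 2.12 CPM.

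CDC25A, the phosphatase that removes inhibitory phosphate from CDK2, rose in every inhibitor library by a similar amount. Its level was 22.1, 23.3 and 18.5 CPM in inhibitor 1 to 3 (270, 261 and 178 counts) and 7.59, 8.68 and 8.11 CPM in DMSO 1 to 3 (97, 114 and 72 counts). The lowest inhibitor value was thus more than 2 times the highest DMSO value, and no library stood apart in either group. By edgeR it was 1.39 higher on the log2 scale (SE 0.158, adjusted p = 0.000222), the 55th largest in size among 11216 genes. CDC25A passed under all 15 alternative settings, with log2 fold changes from 1.32 to 1.48 and adjusted p at most 0.00616. It was the single member that passed whichever library was left out.

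CCNE2 encodes cyclin E2, one of the partners of CDK2. It stood at 7.43, 11.4 and 11.1 CPM in inhibitor 1 to 3 and at 4.3, 3.65 and 5.18 CPM in DMSO 1 to 3. Its counts were 91, 128 and 107 against 55, 48 and 46. All inhibitor values were above all DMSO values, with inhibitor 1 nearest to the DMSO range. This came to a log2 fold change of 1.2 (SE 0.217, adjusted p = 0.00701 by edgeR). Without inhibitor 2, inhibitor 3 or DMSO 2 it kept its direction and no longer passed, with adjusted p = 0.0713, 0.0524 and 0.0589.

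CCNE1 encodes cyclin E1, the other partner of CDK2. It stood at 5.06, 7.58 and 6.03 CPM in inhibitor 1 to 3 and at 3.21, 3.58 and 3.49 CPM in DMSO 1 to 3. The groups did not overlap. Counts were 62, 85 and 58 in inhibitor 1 to 3 and 41, 47 and 31 in DMSO 1 to 3. The coefficient of variation was 5.66% in the DMSO and 20.4% in the inhibitor libraries. At counts this low, neither value measures the spread closely. At a log2 fold change of 0.86 (SE 0.215), CCNE1 was just inside the threshold (edgeR adjusted p = 0.0402). The call was lost without inhibitor 1, 2 or 3 (adjusted p = 0.0699, 0.241 and 0.124), without DMSO 1 or 2 (0.0798 and 0.125) and with limma-voom (0.0521). Its fold change stayed between 0.69 and 0.99 on the log2 scale over the 15 alternatives.

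CDK2, the kinase of this arm, differed by much less. It read 193, 202 and 199 CPM in inhibitor 1 to 3 and 164, 158 and 166 CPM in DMSO 1 to 3. These groups did not overlap, and the coefficients of variation of 2.19% and 2.41% were among the lowest of the members. With a log2 fold change of 0.28 (SE 0.11) it did not pass (edgeR adjusted p = 0.169). Without DMSO 3 it did (0.28, adjusted p = 0.0366), as 1 of the 10.8% of genes called higher in that setting, against 1.95% with all libraries. By limma-voom with quality weights it also passed, at 0.308 (adjusted p = 0.0149), where 12.4% of genes were called higher.

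Of the E2F activators, E2F2 rose and E2F1 did not pass. E2F2 had 40, 21 and 38 counts in inhibitor 1 to 3 (3.27, 1.87 and 3.95 CPM) and 15, 11 and 5 counts in DMSO 1 to 3 (1.17, 0.837 and 0.563 CPM). Every inhibitor value lay above every DMSO value, but at these depths the coefficient of variation was 35% and 35.6%, the highest of the members. E2F2 rose by 1.75 on the log2 scale (SE 0.364), with an edgeR adjusted p = 0.0159. It did not pass without inhibitor 1, inhibitor 3 or DMSO 2, with adjusted p = 0.0912, 0.0932 and 0.0883.

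E2F1, the most studied activator, had 658 to 985 counts per library. It read 75, 83 and 86.6 CPM in inhibitor 1 to 3 and 75.8, 75 and 74.1 CPM in DMSO 1 to 3, so inhibitor 1 fell among the DMSO values. Its change of 0.12 on the log2 scale (SE 0.119, adjusted p = 0.63 by edgeR) did not pass under any of the 15 alternatives either. The ratio of E2F2 to E2F1 counts within a library, which does not depend on how libraries are scaled, was 1.70 higher on the log2 scale in the inhibitor group, at -4.81 ± 0.568 against -6.51 ± 0.514 (SD, n = 3). E2F3, the third activator, read 30, 34.2 and 33.8 CPM in the inhibitor libraries and 20.2, 24.1 and 24.5 CPM in the DMSO libraries. By edgeR it was at 0.51 on the log2 scale (SE 0.138) and missed the threshold (adjusted p = 0.0559). It passed under 6 alternatives, among them without DMSO 3 (adjusted p = 0.00289) and with the GC trend removed (0.0328).

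In the cyclin D arm, CCND1, the gene of cyclin D1, was at 523, 504 and 546 CPM in inhibitor 1 to 3 and at 499, 456 and 384 CPM in DMSO 1 to 3. The inhibitor values were above the DMSO values by a gap of 5 CPM, and DMSO 3 was the lowest. CCND1 differed by 0.23 on the log2 scale (SE 0.121, adjusted p = 0.308 by edgeR), and by 0.12 (adjusted p = 0.397) without DMSO 3. CCND3, the gene of cyclin D3, overlapped between groups, at 37.6, 30.7 and 27.3 CPM against 30.1, 29.6 and 22.5 CPM. CCND3 differed by 0.21 on the log2 scale (SE 0.16, adjusted p = 0.505 by edgeR), and by 0.08 without DMSO 3. CCND2, the gene of cyclin D2, was named after its values were seen. Its counts summed to 53 in the inhibitor and 111 in the DMSO group, a difference of -0.97 on the log2 scale (SE 0.278, adjusted p = 0.0708 by edgeR). It was called lower in 4 other settings, among them without DMSO 3 (adjusted p = 0.00496).

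The kinases of the D cyclins pointed in opposite directions and neither passed. CDK4 read 197, 235 and 205 CPM in inhibitor 1 to 3 and 260, 268 and 203 CPM in DMSO 1 to 3, so DMSO 3 lay among the inhibitor values and apart from the other DMSO libraries. CDK4 was at -0.20 on the log2 scale (SE 0.133, adjusted p = 0.437 by edgeR). Without DMSO 3 it was called lower at -0.33 (adjusted p = 0.0165), where 11.1% of all genes were called lower. By limma-voom with quality weights CDK4 was also called lower, at -0.299 (adjusted p = 0.0252), where 10.9% of genes were called lower. CDK6 read 72.2, 77.6 and 84.2 CPM against 67.3, 70.5 and 64.3 CPM. These values did not overlap, and the log2 fold change of 0.21 (SE 0.121, adjusted p = 0.359) did not pass in any setting.

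**Figure D2:**
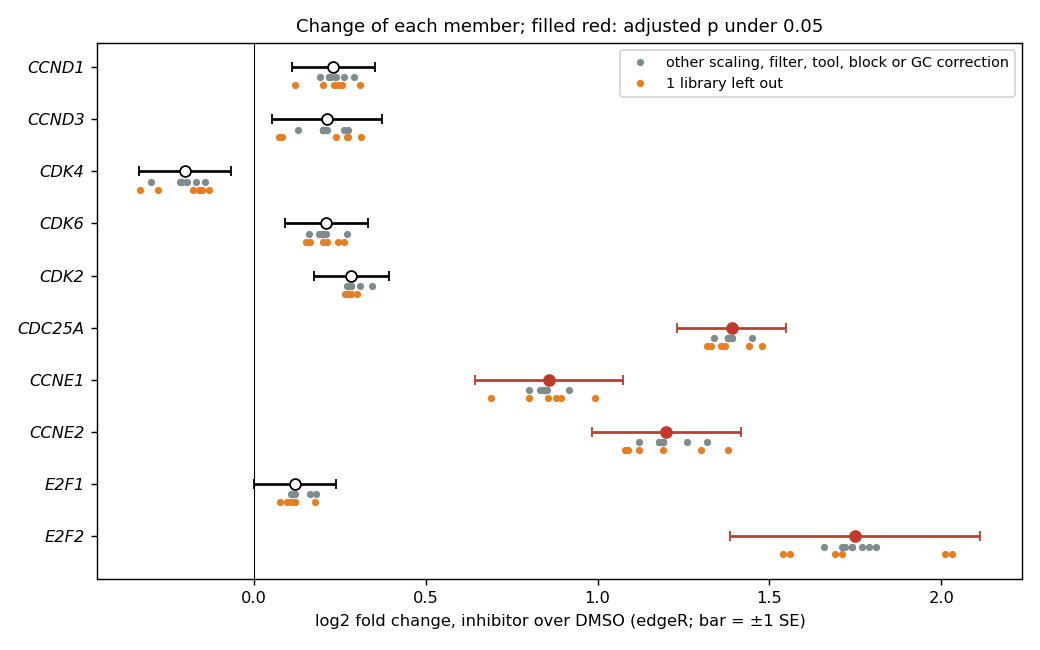
Log2 fold change of each member, inhibitor over DMSO, with ±1 SE (horizontal axis; filled red where the edgeR adjusted p is under 0.05), above the values under other processing (grey) and with 1 library left out (orange). No setting moves a member across 0, and CDC25A, CCNE2, CCNE1 and E2F2 stay at 0.69 or more while the other members stay between -0.33 and 0.34.

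In all, 7 of the 10 members did not overlap between the groups, each with the inhibitor libraries higher, against 13.7% of all tested genes in that direction. They were 5 of the 6 genes of the cyclin E arm and 2 of the 4 of the cyclin D arm. The calls rested on 3 libraries a group: 2, 2 and 1 members were called higher without inhibitor 1, 2 and 3, and 3, 1 and 5 without DMSO 1, 2 and 3. The share of all genes called higher in those settings was 0.432%, 0.334% and 0.607%, and 1.73%, 0.645% and 10.8%. Members differed in how they read in DMSO 3: relative to the DMSO mean it was lower on the log2 scale for CCND1 (-0.21), CCND3 (-0.27), CDK4 (-0.25) and E2F2 (-0.44), whose transcripts hold 57.3% to 59.7% GC. It was higher for CCNE2 (0.25), with 36.6% GC, and within 0.03 of the mean for CCNE1, CDC25A and E2F1, with 49.9%, 52.7% and 62.5% GC. CDK6 was at -0.07 (48.8% GC) and CDK2 at 0.03 (52% GC). The value of E2F2 rests on 5 counts in DMSO 3. With each library's GC trend removed, 4 members were called higher, against 3.18% of all genes, with log2 fold changes of 1.39 for CDC25A, 1.12 for CCNE2, 0.84 for CCNE1 and 1.79 for E2F2.

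Ratios of members within a library set the arms side by side without any scaling. Such a ratio keeps any trend of a library along GC content. CCNE2 holds 36.6% GC, against 57.3% in CCND1 and 59.7% in CCND3. The log2 ratio of summed CCNE1 and CCNE2 counts to summed CCND1 and CCND3 counts was -5.49, -4.82 and -5.06 in inhibitor 1 to 3 and -6.14, -6.07 and -5.55 in DMSO 1 to 3. The groups did not overlap, though inhibitor 1 and DMSO 3 nearly met, and the mean differed 1.74-fold. With E2F1, E2F2 and CDC25A added to the cyclin E genes, the difference was 0.17 on the log2 scale and the groups overlapped, since E2F1 holds most of those counts. No p is given for these ratios, which are scores over the chosen genes.

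Other pairs of members were read in the same way. The log2 ratio of CDC25A to CDK2 was -3.13, -3.12 and -3.43 in the inhibitor libraries and -4.43, -4.19 and -4.36 in the DMSO libraries, a mean difference of 2.14-fold. The log2 ratio of CDK4 to CDK2 was 0.03, 0.22 and 0.04 in the inhibitor libraries and 0.67, 0.76 and 0.29 in the DMSO libraries. It was lower in every inhibitor library than in any DMSO library, by a narrow margin to DMSO 3. Within the cyclin D arm, CDK4 to CDK6 was 1.45, 1.6 and 1.28 in the inhibitor libraries and 1.95, 1.93 and 1.66 in the DMSO libraries, again without overlap and closest at DMSO 3. CCND3 to CCND1 (means of -4.05 and -4.03) and CCNE2 to CCNE1 (0.68 and 0.34) overlapped between the groups. In a panel read through 1 amplicon per gene the level of such a ratio depends on both amplicons, so only its change between libraries is read.

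**Figure D3:**
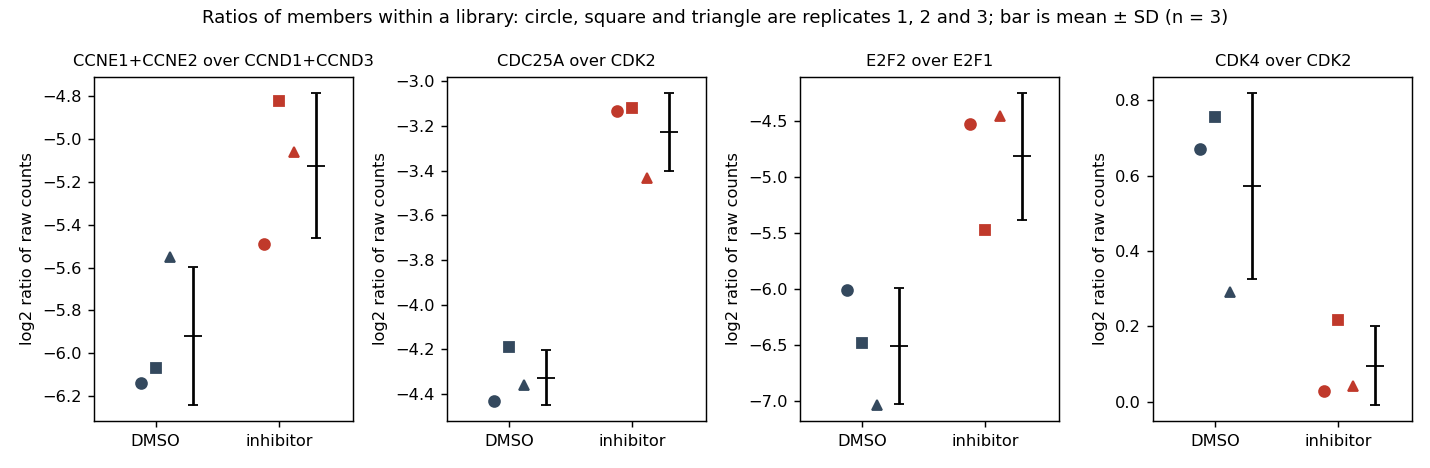
Log2 ratio of raw counts of members within each library (vertical axes, not starting at 0) for the DMSO (dark) and inhibitor (red) groups, with mean ± SD (n = 3). All 4 ratios shown separate the groups, the first 3 with the inhibitor libraries higher and CDK4 over CDK2 with them lower. They were picked from the ratios read, of which CDK4 over CDK6 also separated. CCND3 over CCND1, CCNE2 over CCNE1 and the ratio with E2F1, E2F2 and CDC25A added overlapped and are not shown. How often ratios of other genes separate was not tested.

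Around these members stand their partners, the pocket proteins, other E2Fs, ubiquitin ligases and kinases of G1/S. Of 28 partners tested, 2 rose and 0 fell, against 1.95% and 1.92% of all tested genes, with a median log2 fold change of 0.11. E2F8, an atypical E2F that represses E2F targets, was at 5.23, 5.44 and 5.3 CPM in inhibitor 1 to 3 and 1.8, 2.89 and 2.81 CPM in DMSO 1 to 3. E2F8 had 64, 61 and 51 counts against 23, 38 and 25. Its groups did not overlap, and it rose by 1.1 on the log2 scale (SE 0.232, adjusted p = 0.0175 by edgeR). SKP2, the ubiquitin ligase subunit that marks p27 for destruction, was at 58.7, 60 and 56.9 CPM against 37.3, 38.3 and 33.5 CPM. It rose by 0.68 on the log2 scale (SE 0.123, adjusted p = 0.00667), with both groups tight. E2F8 lost its call without inhibitor 1, 2 or 3 or DMSO 1 (adjusted p = 0.0842, 0.105, 0.0734 and 0.0508), and SKP2 lost its call without inhibitor 1 or 2 (0.0545 and 0.0679). Without DMSO 3, 9 partners were higher and 1 was lower, in a setting that called 10.8% of all genes higher and 11.1% lower.

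RB1, the repressor that the D and E arms both act on, had 148 ± 11.3 CPM in the inhibitor and 148 ± 33.4 CPM in the DMSO libraries (SD, n = 3). RB1 was at 0.01 on the log2 scale (SE 0.151, adjusted p = 0.984 by edgeR), with its sign turning between settings. RBL1, the related pocket protein p107 and itself an E2F target, was at 25 ± 4.43 against 18.2 ± 3.74 CPM, with a log2 fold change of 0.47 (SE 0.177, adjusted p = 0.153). It was called without DMSO 3, at 0.61 (adjusted p = 0.00352), and by limma-voom with quality weights, at 0.505 (0.00634).

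Of the genes of CDK inhibitor proteins, 4 were tested and 0 passed by edgeR, by DESeq2 or by limma-voom without quality weights. With those weights CDKN1A was called lower at -0.396 (adjusted p = 0.00413) and CDKN2C higher at 0.377 (0.00989). That setting called 12.4% of all genes higher and 10.9% lower. An unadjusted p under 0.05 was reached in edgeR by 3 of them (CDKN1A, CDKN2C and CDKN2D), against 19.5% of all genes. CDKN2D, named after its values were seen, was at 0.52 on the log2 scale (edgeR adjusted p = 0.19). CDKN1A, the p21 gene, was at 197 ± 19.7 CPM in the inhibitor and 252 ± 43 CPM in the DMSO libraries (SD, n = 3). CDKN1A differed by -0.36 on the log2 scale (SE 0.141, adjusted p = 0.178 by edgeR), and it was called lower without DMSO 3, at -0.50 (adjusted p = 0.000705). CDKN1B, the p27 gene, was at 12.2 ± 1.21 against 12.5 ± 0.578 CPM (log2 fold change -0.04, SE 0.154, adjusted p = 0.929, turning in sign with library totals as the scaling). CDKN2A and CDKN2B, whose products hold CDK4 and CDK6 in check, had 0 counts in all 6 libraries, which allows up to 0.228 to 0.338 CPM per library from counting error alone. CDKN2C, of the same family and named after its values were seen, was called higher without DMSO 3 at 0.39 (adjusted p = 0.0145) and with the GC trend removed at 0.46 (0.0315).

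Genes known to be induced by activator E2Fs rose in part. Of 29 tested, 8 rose and 0 fell, against 1.95% and 1.92% of all tested genes, with a median log2 fold change of 0.14. The other 21 did not pass. ORC1, which helps mark replication origins, was at 18.6, 13.8 and 15.7 CPM in inhibitor 1 to 3 and 9.15, 9.44 and 6.87 CPM in DMSO 1 to 3 (log2 fold change 0.91, SE 0.178, edgeR adjusted p = 0.0112). CDC6, which loads the replicative helicase at origins, was at 82.2, 83.1 and 81 CPM against 45.4, 50.1 and 48 CPM. Its rise of 0.78 on the log2 scale (SE 0.118, adjusted p = 0.00217) passed whichever library was left out. SLBP, the stem-loop binding protein of histone mRNA, was at 94.4, 104 and 97.9 CPM against 61, 66.1 and 51.8 CPM (0.72, SE 0.129, adjusted p = 0.00639). None of the 3 overlapped between groups. ORC1 lost its call without inhibitor 1 or 3 (adjusted p = 0.099 and 0.0572) and SLBP without inhibitor 2 (0.0713). The count of risers was 2 without inhibitor 1, 2 or 3, 7 without DMSO 1, 5 without DMSO 2 and 10 without DMSO 3. All genes called higher in those settings made up 0.432%, 0.334%, 0.607%, 1.73%, 0.645% and 10.8%. Without DMSO 3, MCM7 and TK1, named after their values were seen, were called lower. Promoters of 14 of the 25 list genes in the table held an E2F match, against 3.99% of all genes there. Of the risers named above, CDC6 held a match that begins after its start site. ORC1 and SLBP held none, nor did SKP2 of the partners, while RBL1 held 2 and did not pass. The list of E2F target genes shares RBL1, E2F7, E2F8 and CCNA2 with the partners.

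**Figure D4:**
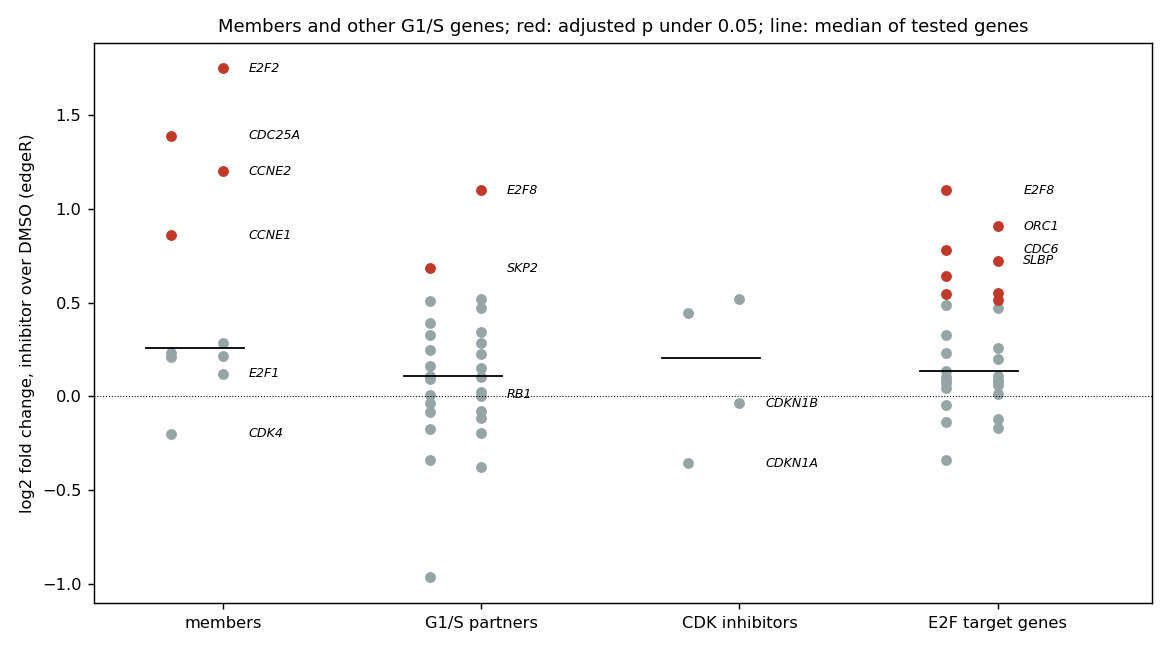
Log2 fold change, inhibitor over DMSO (vertical axis), of every tested gene among the members and in 3 lists of G1/S genes, with a line at each median and red points where the edgeR adjusted p is under 0.05. Red points occur above 0 among the members (4), the partners (2) and the E2F target genes (8), and none lies below 0 or among the CDK inhibitors.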

How the data were processed

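RNA of HT-1080 dishes was read with the Ion AmpliSeq Transcriptome panel and an Ion Torrent Proton instrument, as the labels' protocols and design text state, so each gene is counted through a short PCR product. The authors deposited 1 file of raw, unnormalized counts by gene symbol per library. HTSeq, DESeq2 1.20.0 and hg19 are listed without a role, per the submitters' processing notes, and which aligner was used is not stated in them. No molecular identifiers are named, so count intervals cover counting error only.

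Counts of 3 inhibitor and 3 DMSO libraries were fitted with edgeR 4.0.16 in R 4.3.3 (filterByExpr, minimum count 10 and total 15, TMM, quasi-likelihood test on group, Benjamini-Hochberg over 11216 genes). The SE is the log2 fold change divided by the square root of F. DESeq2 1.42.0 and limma 3.58.1 served as alternatives, and the GC trend was removed by local regression (span 0.5) on GENCODE transcripts, available for 98.9% of tested genes. Log2 CPM for that trend and for the deviations used a prior count of 2.

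The members, the lists and the tests were chosen with earlier results of these data known. Named were all members, up to 4 called genes in each direction of each G1/S list, and RB1, RBL1, E2F3, SKP2, CDKN1A, CDKN1B and CDKN2A. Promoters come from RefSeq, GRCh38.p14. In simulated inhibitor against DMSO counts (11263 genes), the share of changed genes that edgeR found was 35.8% at 1.5-fold, 94% at 2-fold and 100% at 4-fold. Of its calls, 4.38% were false. Each gene was drawn independently in each simulated library, so trends along GC content and library-wide differences were absent. These shares need not hold for the real libraries.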

Additional observations from a re-analysis of the deposited data

How the results depend on the processing

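Of 149 member values under alternatives, 132 kept their direction and side of the threshold, 13 no longer passed, 4 newly passed and none reversed. Leaving out 1 library gave 38 to 1227 genes higher and 61 to 1269 lower over all genes (219 and 215 with all libraries). For the members it gave 1 to 5 higher and 0 to 1 lower, for the partners 0 to 9 and 0 to 1, for the CDK inhibitors 0 to 1 and 0 to 1, and for the E2F targets 2 to 10 and 0 to 2. Library totals alone gave 336 genes higher and 1 CDK inhibitor higher (CDKN2C). No filter gave 395 genes higher and 436 lower, and 1 partner lower (CCND2). A mean count of at least 50, which takes out E2F2, E2F8 and CCND2, left 1 partner higher, SKP2. Quality weights gave 1387 genes higher and 1219 lower, with 5 members higher, CDK2 among them, and 1 lower (CDK4). They also gave 9 partners higher and 1 lower (CCND2), and 1 CDK inhibitor higher (CDKN2C) and 1 lower (CDKN1A). GC correction gave 353 higher and 339 lower, 1 partner lower (CCND2) and 1 CDK inhibitor higher (CDKN2C). Beyond the settings that test fewer genes or libraries, the cause was not tested. The cyclin E to cyclin D difference was 0.80 on cyclins alone against 0.17, and 0.09 to 0.28 with a library left out.

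RB1 turned below 0 with DESeq2 size factors (-0.00120), no filter (-0.00317), a mean count of at least 50 (-0.00183), DESeq2 (-0.00145) and GC correction (-0.0418), and ranged from -0.0909 to 0.194 with 1 library left out. CDKN1B was 0.0243 with library totals and -0.123 to 0.0148 with 1 left out. Same-numbered libraries did not deviate together (correlations of -0.0414, -0.0378 and -0.0882), so the replicate block is given only here: it called 3 members higher in place of 4 (without CCNE1, adjusted p = 0.0514), 2 partners, 7 E2F targets, and 159 genes higher and 168 lower.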
